A study of Mus musculus with 8 samples.

Results

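The Egr, Nr4a and Ier genes of the rapid response to growth factors and stress were followed on these arrays: Egr1, Egr2 and Egr3, Nr4a1, Nr4a2 and Nr4a3, and Ier2, Ier3 and Ier5. They were taken by name, with earlier results of these data known, and make 9 of the 20145 genes that could be named on the array. Their RefSeq accessions select 11 of the 55681 non-control probes. Egr1, Egr2, Egr3, Nr4a1, Nr4a3, Ier2 and Ier3 have 1 probe each, and Nr4a2 and Ier5 have 2.

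The arrays compare 4 tumours of 4T1 cells infected with an adenovirus that carries PRH (the PRH group) with 4 tumours of 4T1 cells infected with empty adenovirus (the control group). 4T1 is a mouse mammary carcinoma line. In both groups the infection lasted 24 h at a multiplicity of 50, the cells went into the number 3 fat pad of female BALB/C mice aged 6 to 8 weeks, and tumours were taken on day 22. The design text names tumours as the material and the extraction protocol endothelial isolates, and markers of both are given below. A tumour also holds host cells. In these samples fewer cells of a type and less RNA per cell cannot be told apart. The groups share the mouse numbers 1, 2, 3 and 5, which name the arrays below. Nothing in the labels says whether a number marks a shared animal, and p-values measure the spread between these samples.

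Egr, Nr4a and Ier genes belong to the immediate early genes, which cells switch on within minutes of a stimulus and without new protein synthesis. MAP kinase signalling reaches them through serum response factor and its ETS partners, which bind CArG boxes, and through CREB family factors, which bind cyclic AMP response elements. EGR proteins are zinc finger activators held in check by the corepressors Nab1 and Nab2. NR4A proteins are orphan nuclear receptors, of which Nr4a1 and Nr4a2 can pair with retinoid X receptors. Their transcripts are short-lived, so a level measured at harvest mostly reflects transcription shortly before it.

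RefSeq promoter sequence of build GRCm38.p6 was at hand for Egr2, Nr4a1, Nr4a2, Nr4a3, Ier3 and Ier5, and not for Egr1, Egr3 and Ier2. Stretches of 60 bases upstream of the transcription start are given for 3 of the genes that the arrays could measure. They hold matches to the elements named above. Capitals mark the CArG box in Egr2 (chr10:67537769-67537828, plus strand) and the half-site TGACG of the cyclic AMP response element, read on either strand, in Nr4a1 (chr15:101266766-101266825, plus strand) and Nr4a2 (chr2:57124094-57124153, minus strand). The Egr2 stretch also holds a TGACG half-site on the other strand, and the Nr4a1 stretch a match to the EGR motif given below. Both are left in lower case.
Egr2: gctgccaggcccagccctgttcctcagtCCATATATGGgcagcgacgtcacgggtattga
Nr4a1: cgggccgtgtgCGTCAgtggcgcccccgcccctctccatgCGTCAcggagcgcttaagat
Nr4a2: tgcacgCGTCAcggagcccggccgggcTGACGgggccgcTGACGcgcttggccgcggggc
In the 250 bases before the start, a CArG box was found in 4 of the 5 Egr2 windows and in none of the single windows of the other genes, against 1.47% of 32851 windows of all genes. The Egr2 windows overlap, so these are 2 distinct boxes. TGACG was found in 3 of the 5 Egr2 windows, at the same 2 sites, and in the window of Nr4a1, Nr4a2 and Nr4a3, against 17.8% of all windows. The EGR motif GCGNGGGCG was in the Nr4a1 and Nr4a2 windows, against 4.70% of all. The full element TGACGTCA and the NR4A motif AAAGGTCA were in no member window, against 1.55% and 1.34% of all. Both strands were searched, and TGACG lies within TGACGTCA. A match describes letters and not a working site.

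None of the 10 tested member probes passed in the comparison of PRH with control tumours. The 10 probes of 8 genes were bright enough to test, and 8 of them had a lower mean in PRH tumours, as did 39.5% of all tested probes and 53.1% of those with a gene symbol. The test was limma over 39461 probes with Benjamini-Hochberg adjustment and a threshold of 0.05, on log2 signal relative to each array's 75th percentile. By that test 26.2% of all tested probes passed, 16.1% higher and 10.1% lower in PRH tumours. The median difference of the member probes was -0.11, against 0.22 over all tested probes and -0.05 over the 21296 tested probes with a gene symbol. Before adjustment, 1 of the 10 member probes had a p under 0.05, against 39.2% of all tested probes.

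**Figure D1:**
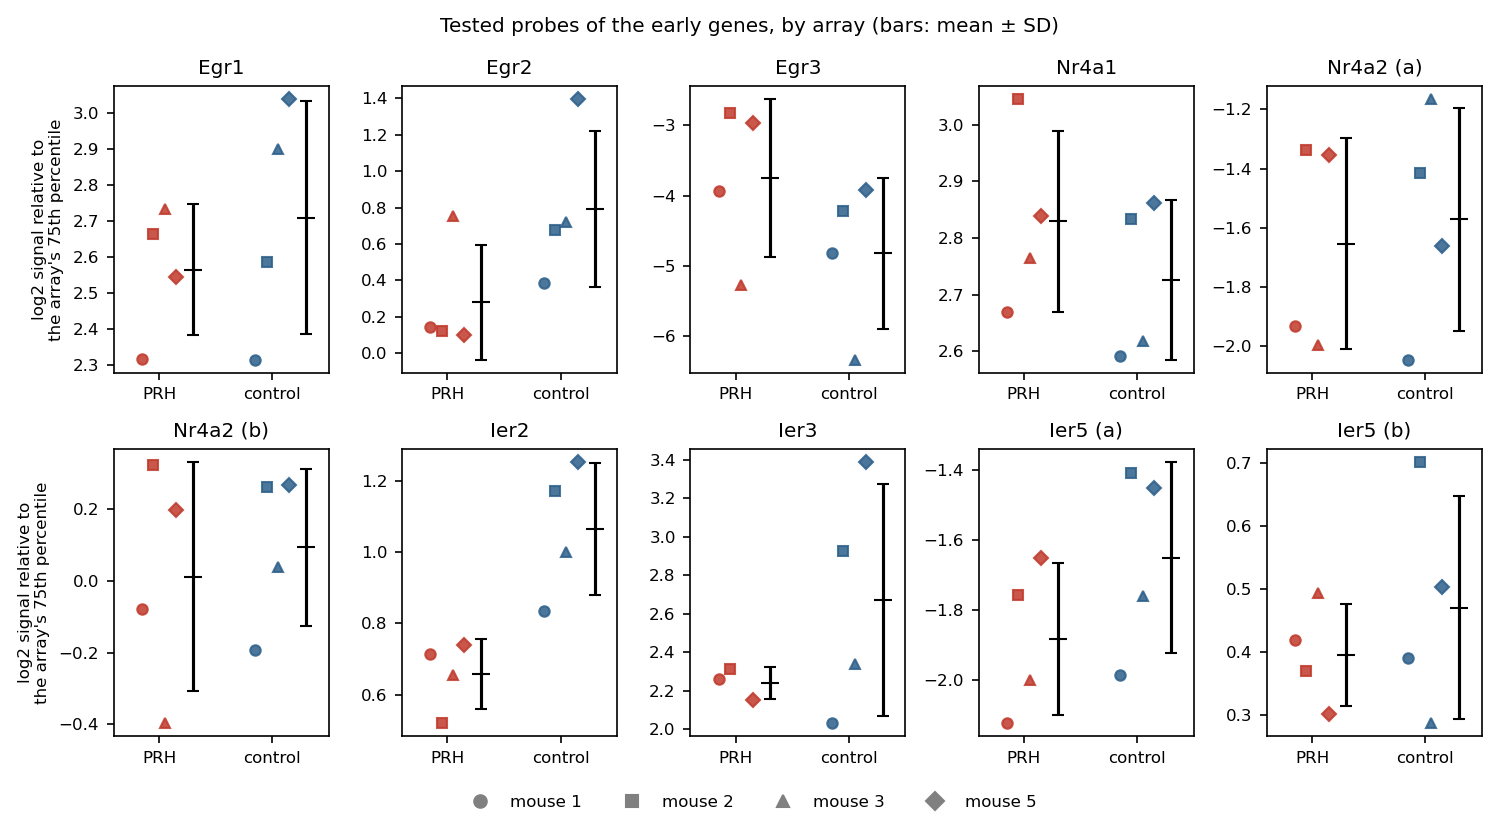
Log2 signal relative to the array's 75th percentile (vertical axis, a scale per panel) for the 10 tested probes, PRH arrays at left in red and control arrays at right in blue, with marker shapes for mouse numbers and black bars for the mean ± SD. The Ier2 panel shows groups that do not overlap, and Ier3 has 3 PRH points because the spot of PRH 3 was left out. Nr4a2 (a) is probe A_55_P1983508 and (b) A_52_P494622; Ier5 (a) is A_55_P2021114 and (b) A_55_P2021109.

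Egr1, the best known immediate early transcription factor of the family, did not differ beyond the spread of the arrays. Its log2 level was 2.32, 2.66, 2.73 and 2.54 on PRH arrays 1, 2, 3 and 5, against 2.31, 2.59, 2.90 and 3.04 on control arrays 1, 2, 3 and 5. The groups overlap, and the 2 highest arrays are control 3 and control 5. The mean was 2.56 ± 0.18 in PRH tumours and 2.71 ± 0.32 in control tumours (SD, n = 4 each), a difference of -0.14 (SE 0.193, limma adjusted p = 0.597). The 95% confidence interval ran from -0.59 to 0.30, which is 0.664 to 1.23 on the fold scale. The sign was not stable, since normexp correction and the authors' deposited values put the difference at 0.000546 and 0.000613.

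Egr2, which directs myelination in Schwann cells and is also induced in activated T cells and macrophages, had the lowest mean difference among the members in the 75th percentile scaling and did not pass. Under quantile normalization and centring within brightness bins the dimmer Ier5 probe read lower still. It stood at 0.15, 0.12, 0.75 and 0.10 in PRH tumours 1, 2, 3 and 5, against 0.38, 0.68, 0.72 and 1.40 in the control tumours of the same numbers. PRH arrays 1, 2 and 5 lie close together below all control arrays, while PRH 3 lies above control 1, 2 and 3. The difference was -0.51 (SE 0.256, limma adjusted p = 0.177, interval -1.11 to 0.08), and moved to -0.31 without control 5. In all 7 scalings between arrays the difference stayed below 0, from -0.98 to -0.41. It passed after median centring (-0.98, limma adjusted p = 0.0316), a scaling under which the median of all probes was -0.25 and 25.0% of them were lower and passed.

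Egr3, a close relative that EGR1 can induce, read higher in PRH than in control tumours for mouse numbers 1, 2 and 5. It did not pass without pairing. Number 3 also read higher, but close to the floor. Its probe was dim, and was well above background on 4 of 4 PRH and 3 of 4 control arrays, control 3 being the exception. The log2 level was -3.93, -2.83, -5.27 and -2.97 in PRH tumours 1, 2, 3 and 5, against -4.82, -4.21, -6.33 and -3.92 in control tumours 1, 2, 3 and 5. Number 3 is the lowest of both groups, and numbers 2 and 5 are the 2 highest of both. The unpaired difference was 1.07 (SE 0.693, limma adjusted p = 0.288, interval -0.54 to 2.68), and moved to 0.57 without control 3. Within mouse numbers 1, 2 and 5 it was 0.88, 1.39 and 0.95. For number 3, control 3 lay under the lowest well-measured signal of its array, at -5.56, and the difference from that floor was 0.30. PRH 3, at -5.27, lay just above the floor of its own array, at -5.32. These floors differ between arrays after scaling, so number 3 gives only a bound and no firm direction.

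In a fit that blocks on mouse number, Egr3 passed at the same difference of 1.07 (SE 0.149, limma adjusted p = 0.0102). It was the 1 member probe called there, where 24.9% of all tested probes were higher and passed. That SE rests in part on the value of control 3, which is not well above background. With values under the floor of their array raised to it, the blocked difference was 0.88 (SE 0.208, limma adjusted p = 0.0295), and 24.4% of all probes were higher and passed. With both arrays of number 3 left out it was 1.07 (SE 0.175, limma adjusted p = 0.0366), with 17.7% of all probes higher and passing. Probes of like brightness also read higher on PRH arrays. The median difference in the brightness bin, of 10, that holds Egr3 was 0.70, and Egr3 lay 0.37 above it. Over the 7 scalings the difference ran from 0.31 (normexp) to 1.07 (75th percentile). Each group had a slide column to itself, with mouse numbers along the slide rows, so mouse number and slide row cannot be told apart, nor group and slide column.

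**Figure D2:**
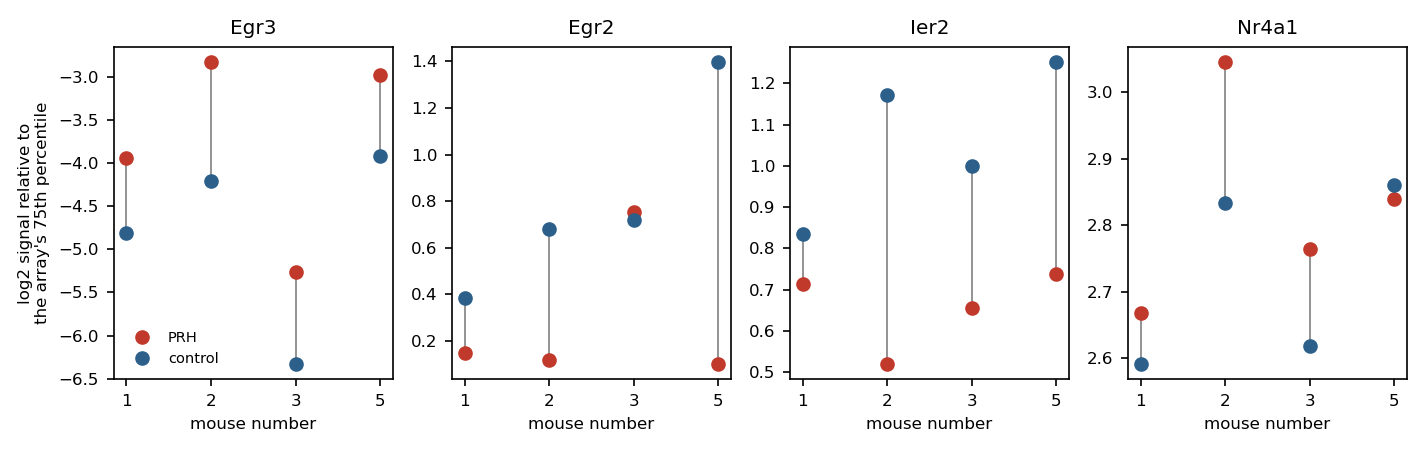
Log2 signal relative to the array's 75th percentile (vertical axis, a scale per panel) of Egr3, Egr2, Ier2 and Nr4a1 by mouse number (horizontal axis), PRH in red and control in blue, with a grey line joining arrays of the same number. Egr3 is higher in PRH for each number, Ier2 lower for each number, and Egr2 and Nr4a1 change sign between numbers. The Egr3 value of control 3 was not well above background, and that of PRH 3 lay just above its array's floor.

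The Nr4a genes showed no difference beyond their spread where they could be measured. Nr4a1, or Nur77, a nuclear receptor induced by growth factors and by T cell receptor signals, stood at 2.67, 3.05, 2.76 and 2.84 in PRH tumours 1, 2, 3 and 5, against 2.59, 2.83, 2.62 and 2.86 in the control tumours of the same numbers. The groups overlap over most of their range. The difference was 0.10 (SE 0.139, limma adjusted p = 0.596), and the interval of -0.22 to 0.43 is 0.860 to 1.34 on the fold scale. The sign turned with the scaling, from -0.36 after median centring to 0.21 after centring within brightness bins.

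Both probes of Nr4a2, or Nurr1, a nuclear receptor needed for midbrain dopamine neurons, gave a difference of -0.08 in the 75th percentile scaling. They parted in others, at 0.03 for the brighter and -0.42 for the dimmer probe with the authors' values and -0.11 and -0.37 after quantile normalization. The brighter probe, A_52_P494622, stood at -0.08, 0.32, -0.40 and 0.20 in PRH tumours 1, 2, 3 and 5, against -0.19, 0.26, 0.04 and 0.27 in control tumours 1, 2, 3 and 5. PRH 3 is the lowest and PRH 2 the highest of all 8, so the groups overlap fully. Its SE was 0.199 and its limma adjusted p 0.773, with an interval from -0.54 to 0.38. The dimmer probe, A_55_P1983508, ranged from -1.99 to -1.34 in PRH tumours and from -2.05 to -1.17 in control tumours (limma adjusted p = 0.822). The sign of both probes changed when PRH 3 was left out, to 0.05 and 0.03, and the dimmer probe's also without PRH 1 or control 3.

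Nr4a3, or NOR1, the third nuclear receptor of the group, was not well above background on any of the 8 arrays. Its 1 probe is printed on 10 spots of each array, and no fold change is given. The mean of its spots was 4.41 to 5.53 signal units on PRH arrays and 5.04 to 6.91 on control arrays.

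Among the Ier genes, Ier2 came nearest to the threshold. Ier2 encodes a short-lived nuclear protein of the early response. Its level was 0.71, 0.52, 0.65 and 0.74 in PRH tumours 1, 2, 3 and 5, against 0.84, 1.17, 1.00 and 1.25 in control tumours 1, 2, 3 and 5. Every PRH array lies below every control array, which makes 1 of the 10 member probes without overlap, against 31.5% of all tested probes in either direction and 12.7% in that one. The difference was -0.41 (SE 0.137, limma adjusted p = 0.0637), with an interval from -0.73 to -0.09 that is 0.604 to 0.940 on the fold scale. The difference stayed below 0 in all 7 scalings (-0.87 to -0.28). Its limma adjusted p was 0.0151 after median centring, 0.0421 with an intensity trend, 0.0477 among probes detected on all 8 arrays and 0.0217 without control 1. Probes lower in PRH tumours that passed made up 11.1% of all with the trend, 14.1% of those detected on all 8 arrays and 15.7% without control 1. Over the other settings run on scaled signal the adjusted p of Ier2 was 0.0612 to 0.436.

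Ier3, or IEX-1, a gene that NF-kappaB induces and that acts in cell survival, rested on 7 arrays. The spot of PRH 3 carried the Agilent software's flag for a non-uniform spot and read 124758, which is 11.8 times the next highest array. That array was therefore left out for this probe. The level was 2.26, 2.31 and 2.15 in PRH tumours 1, 2 and 5, against 2.03, 2.92, 2.34 and 3.39 in control tumours 1, 2, 3 and 5. The 3 PRH arrays lie close together, while control 1 lies below them and the other controls above. The difference was -0.43 (SE 0.331, limma adjusted p = 0.371, interval -1.22 to 0.36). It moved to -0.19 without control 5 and to -0.64 without control 1. With the flagged spot kept, the difference turned to 0.88 (SE 1.19, limma adjusted p = 0.600), and in the authors' deposited table the value of PRH 3 was likewise 106879, against 4295 to 4518 on the other PRH arrays.

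Ier5, which takes part in the heat shock response by acting on HSF1, had 2 probes that did not pass. The brighter, A_55_P2021109, stood at 0.42, 0.37, 0.49 and 0.30 in PRH tumours 1, 2, 3 and 5, against 0.39, 0.70, 0.29 and 0.50 in control tumours 1, 2, 3 and 5. The groups overlap, with control 2 the highest and control 3 the lowest. The difference was -0.07 (SE 0.133, limma adjusted p = 0.691, interval -0.38 to 0.23). The dimmer probe, A_55_P2021114, was lower in the PRH tumour of each mouse number, by a mean of -0.23 (SE 0.184, limma adjusted p = 0.375). Its groups overlap, at -2.12 to -1.65 in PRH tumours and -1.99 to -1.41 in control tumours. It stayed below 0 in all 7 scalings (-0.70 to -0.23), whereas the brighter probe read 0.03 after centring within brightness bins.

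**Figure D3:**
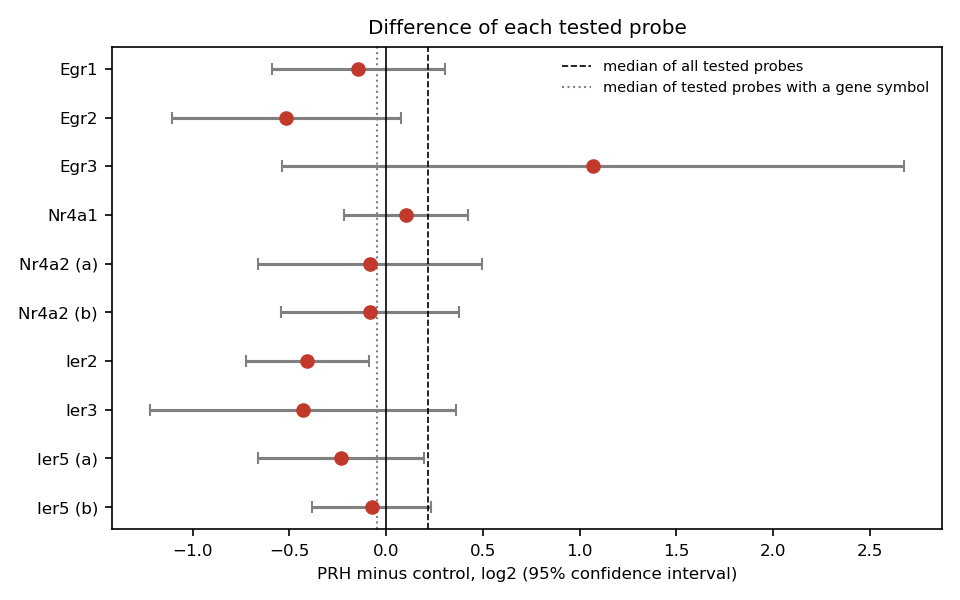
PRH minus control on the log2 scale (horizontal axis) for the 10 tested probes, with 95% confidence intervals from the unpaired limma fit, the median of all tested probes dashed and that of probes with a gene symbol dotted. The intervals of all probes but Ier2 include 0, and that of Egr3 is the widest.

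How far the members sat below the control arrays depended on the scaling. The upper quartile of signal, by which arrays were scaled, was 722.4 ± 41.2 on PRH arrays and 1094 ± 131 on control arrays (SD, n = 4 each, exact two-sided permutation p = 0.0286, the smallest 4 against 4 arrays allow), a mean log2 difference of -0.59. In unscaled signal the PRH arrays lay wholly below the control arrays for 6 of the 10 member probes, those of Egr1, Egr2, Ier2, Ier3 (on 7 arrays) and both of Ier5. The same held for 35.1% of all tested probes and for 10489 of the 21296 tested probes with a gene symbol. Egr1, for example, read 3385 to 4828 in PRH tumours and 4989 to 8278 in control tumours. Without any scaling, a setting chosen after seeing the data, 5 member probes passed with limma, all lower (Egr1, Egr2, Ier2 and both of Ier5), while 33.0% of all probes were lower and passed and the median of all probes was -0.37.

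Set against the median of all probes in the same scaling, Egr2 lay at -0.73 to -0.47 over the 7 scalings, Ier2 at -0.63 to -0.29 and the dimmer probe of Ier5 at -0.56 to -0.43 on the log2 scale. Egr1 lay at -0.36 to -0.01, the brighter Ier5 probe at -0.29 to -0.03 and the dimmer Nr4a2 probe at -0.44 to -0.24. These 6 probes were thus below that median throughout, Ier3 in 6 of the 7 scalings, and Nr4a1 and the brighter Nr4a2 probe in 5 of the 7. Egr3 lay above it in all 7, at 0.30 to 0.85. The median difference of the members was below that of all probes in each of the 7. In the 75th percentile scaling the median of tested probes with a gene symbol was lower than that of all probes, at -0.05. There Egr2 stood at -0.51, Ier2 at -0.41, the dimmer Ier5 probe at -0.23 and Egr1 at -0.14. The dimmer Nr4a2 probe stood at -0.08 and the brighter Ier5 probe at -0.07, close to that median. The median of all probes varied with brightness. Against probes of like brightness in the 75th percentile scaling, the dimmer Ier5 probe lay at -0.61, Egr2 at -0.36, Ier3 at -0.30, Ier2 at -0.25 and the dimmer Nr4a2 probe at -0.22. Egr1 lay at -0.01, the brighter Nr4a2 probe at 0.0028, the brighter Ier5 probe at 0.08 and Nr4a1 at 0.24.

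**Figure D4:**
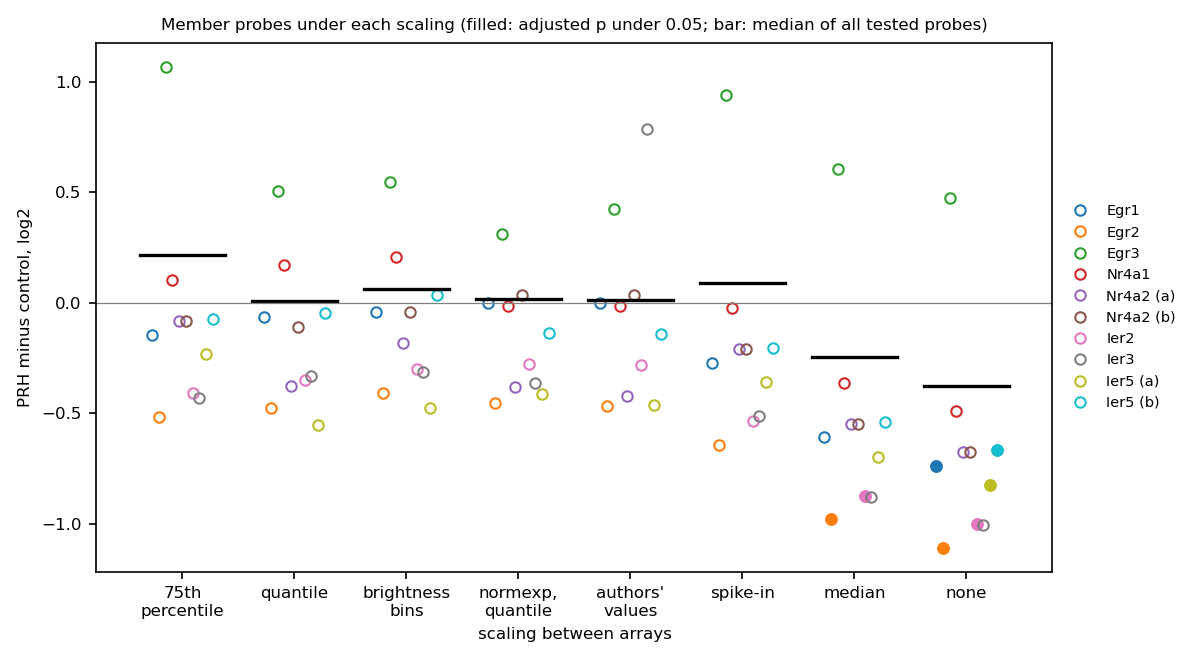
PRH minus control on the log2 scale (vertical axis) of each member probe under 7 scalings and without scaling (horizontal axis); filled points passed with limma and black bars give the median of all tested probes. Filled points appear after median centring (Egr2 and Ier2) and without scaling (5 probes), where the black bar is lowest.

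Control 1 was the lowest control array for 8 of the 10 member probes, of 7 genes, against 31.6% of all tested probes and 41.8% of those with a gene symbol. Control 5 was the highest for 7 of the 10 probes, of 7 genes, against 17.3% of all tested probes and 16.04% of those with a symbol. Whether the members differ in this from other genes was not tested. Among the 9 probes measured on all 4 PRH arrays, PRH 2 was the highest for 4 and PRH 3 for 3, while PRH 1 and PRH 3 were the lowest for 3 each. Without control 1, the median member difference moved to -0.26 and Ier2 passed. Control 1 had the highest summed level of B cell, adipocyte, neutrophil and T cell markers of all 8 arrays. Its summed level over 5 tested B cell markers was 4.46 on the log2 scale, against -1.32 to -1.02 on the other control arrays, and over 5 tested adipocyte markers 5.64, against 2.31 to 3.73. Over 7 tested neutrophil markers it was 7.45, against 4.80 to 6.68 on the other control arrays, and over 7 tested T cell markers 4.80, against 3.61 to 4.01. The part of these cells in the low early gene levels of control 1 was not tested.

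Transcripts of factors that induce these genes were measured next, and the activity of the factors was not measured. Genes here and in the next lists are counted by their brightest tested probe. Over the 4 lists 13 of 60 tested genes passed, against 26.2% of all tested probes, 16.1% higher and 10.1% lower. Of the 21296 tested probes with a gene symbol, 2106 passed higher and 3065 lower. The median difference was 0.22 over all tested probes and -0.05 over those with a symbol. Of 12 inducing factors 1 rose and 3 fell in PRH tumours, with a median difference of -0.25. Atf1 and Creb1, which bind cyclic AMP response elements, fell by 0.96 (SE 0.168, limma adjusted p = 0.00842) and 1.00 (SE 0.189, limma adjusted p = 0.0102). Crtc3, a coactivator of CREB, fell by 0.86 (SE 0.182, limma adjusted p = 0.0136). Elk1, an ETS partner of serum response factor, rose by 0.78 (SE 0.146, limma adjusted p = 0.00974), but its other probe stood at -0.84, and the call held in 2 of the 7 scalings. The other probe of Atf1 stood at -0.88, that of Crtc3 at -0.16 and that of Creb1 at 0.28. Over all 26 tested probes of the list 3 were called higher and 4 lower, with a further probe each of Elk4, an ETS factor, and Mrtfb, a coactivator of serum response factor, among the higher.

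Of 7 tested partners and relatives, 2 rose and 1 fell, and over all 10 tested probes 2 were called higher and 2 lower, a second probe of Ier3ip1 (-0.59) being the other lower one. Nab1, the corepressor of EGR proteins, fell by 1.34 (SE 0.262, limma adjusted p = 0.0109), with -0.06 ± 0.14 in PRH tumours and 1.28 ± 0.53 in control tumours (SD, n = 4 each). Nab2, the other corepressor and itself an EGR target, stood at -0.49 and did not pass (SE 0.171, limma adjusted p = 0.0726). Rxra and Rxrb, retinoid X receptors, rose by 1.02 (SE 0.174, limma adjusted p = 0.00797) and 0.77 (SE 0.162, limma adjusted p = 0.0134), and the other Rxra probe stood at 0.21. Rxrb lost its call after median centring. Rxrg, the third retinoid X receptor, stood at 0.63 and passed with the block alone (limma adjusted p = 0.0225, against 0.145 without it). Egr4 was not tested, since too few arrays read it above background.

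Of 13 genes known as EGR targets, 0 rose and 2 fell, with a median difference of 0.01, and over all 21 tested probes 0 were called higher and 3 lower. Icam1, an adhesion molecule for leukocytes, fell by 1.19 (SE 0.237, limma adjusted p = 0.0115). Mmp14, a membrane-bound matrix metalloproteinase, fell by 0.52 (SE 0.142, limma adjusted p = 0.0312), and this call was lost with the block (limma adjusted p = 0.052) and in 7 of the 8 fits without 1 array, with an adjusted p of up to 0.0866 without PRH 2. F3, tissue factor, stood at 0.55 (SE 0.258, limma adjusted p = 0.159).

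Of 28 other immediate early genes, 0 rose and 4 fell, with a median difference of -0.20. Zfp36, which speeds decay of cytokine transcripts, and Btg2, an antiproliferative gene, fell by 1.66 (SE 0.304, limma adjusted p = 0.00928) and 1.20 (SE 0.185, limma adjusted p = 0.00701). Klf4, a Kruppel-like factor, fell by 0.75 (SE 0.179, limma adjusted p = 0.0206), and Dusp1, a MAP kinase phosphatase, by 0.70 (SE 0.178, limma adjusted p = 0.0254). Dusp1 lost its call with the block (limma adjusted p = 0.0501) and in 6 of the 8 fits without 1 array, with an adjusted p of up to 0.0714 without control 5. Arc, an early gene of neurons, stood at 0.95 and passed with the block alone (limma adjusted p = 0.0162, against 0.164 without it). Klf4 lost its call in 4 of the fits without 1 array, with an adjusted p of up to 0.0589 without PRH 5. None of the 13 calls in these 4 lists held after spike-in centring, under which 4 of all 39461 probes passed. Whether member genes differ from these lists was not tested.

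**Figure D5:**
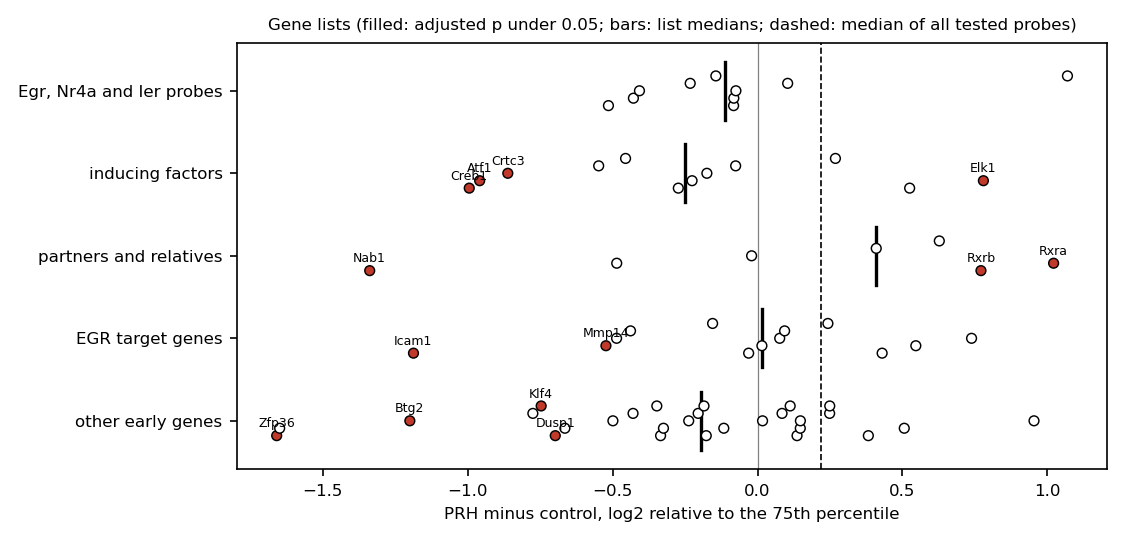
PRH minus control on the log2 scale (horizontal axis) for the 10 member probes and for the brightest tested probe of each gene in 4 lists (rows); filled and named points passed with limma, bars give list medians, and the dashed line the median of all tested probes. The top row holds no filled point, and the filled points of the bottom row all lie below 0.

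By profile over the 8 arrays, the genes nearest to Egr1 were Tube1, Exoc1 and Rbm39. Likeness is the root mean square difference between log2 profiles, each centred on its own mean, among 14417 other named genes well above background on all arrays. For Egr1 it was 0.0690, 0.0828 and 0.0891, against a median of 0.364 over the genes. The nearest genes to Egr2 were Btbd11 (0.153), Slc27a3 (0.155) and Enkur (0.156). Those nearest to Nr4a1 were Zfp553 (0.0623), Mapk7 (0.0630) and Eri3 (0.0660), and to Nr4a2 Rabggta (0.111), Tmem254a (0.116) and Eogt (0.119). Ier2 lay nearest to Fam229b (0.0611), Zfp608 (0.0657) and Pcgf1 (0.0691), and Ier5 to Norad (0.0463), Mat2b (0.0465) and Ddx19a (0.0473). The nearest genes were picked as the smallest values, so they lie below that median by selection. Within the members the closest pair was Nr4a1 and Ier5 (0.169), and the pair farthest apart Egr2 and Nr4a2 (0.473). About their own means Nr4a1 and Ier5 varied by only 0.141 and 0.125, so a flat profile lies nearer to either than they lie to each other. The measure therefore favours genes that vary little and does not show a shared pattern. Egr3, Ier3 and Nr4a3 could not enter, since each lacked a detected value on at least 1 array.

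The labels, the targeted gene and the tissue were checked on the same arrays. Hhex, which encodes PRH, was lower on the arrays labelled PRH, at -1.67 ± 0.14 against -0.58 ± 0.20 on control arrays (SD, n = 4 each), a difference of -1.09 (SE 0.148, limma adjusted p = 0.00672), so each direction above is that of the label. The design text names tumours and the extraction protocol endothelial isolates. Markers of both were well above background on all 8 arrays, 10 of 10 for carcinoma epithelium and 9 of 10 for endothelium, Erg being the exception. The summed epithelial level was 8.72 to 9.01 on PRH arrays and 8.30 to 8.67 on control arrays, and the endothelial one 4.73 to 5.03 on PRH arrays and 3.69 to 4.89 on control arrays. The marker counts that follow stand beside 16.1% higher and 10.1% lower over all tested probes. Of 10 epithelial and 9 tested endothelial markers 1 each rose, as did 1 of 7 for neutrophils, 1 of 7 for keratinocytes and 2 of 8 for muscle. The endothelial one, Kdr, had another probe at -0.48, and the epithelial one, Krt18, kept its call in 2 of the 7 scalings. Of 7 tested macrophage markers 2 fell, as did 2 of 8 for fibroblasts. None passed of 7 for T cells, 5 for B cells, 5 for adipocytes and 3 for erythroid cells, though a dimmer probe of the T cell marker Cd8a (-0.97) did. The block added a higher call in each of 4 lists, those for T cells (Cd3e), B cells (Pax5), erythroid cells (Slc4a1) and muscle (Pvalb). The summed keratinocyte level was 4.89 to 6.88 on PRH arrays and 3.06 to 5.40 on control arrays, and the macrophage one 7.20 to 7.71 on PRH arrays and 7.28 to 7.96 on control arrays. The part of these cells in the differences of the early genes was not tested.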

How the data were processed

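Cy3-labelled RNA was hybridised to 1-colour Agilent mouse arrays, 4 PRH and 4 control. Scanner intensities were deposited as Agilent Feature Extraction output, of version 10.7.3.1 per the file headers and 9.1 per the submitters' processing notes. The design text speaks of human arrays, but the probes are of mouse genes. The deposited value table holds linear intensities normalised in R, per the series' design text, by a method not given in the sources used here.

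Log2 of the processed signal was taken relative to each array's 75th percentile. Spots flagged as outliers were left out, spots of a probe were averaged, and each probe was kept on its own. Probes well above background on at least 4 of 8 arrays were tested with limma 3.58.1 in R 4.3.3 (lmFit, eBayes, two-sided, Benjamini-Hochberg), with the group alone in the model. No spot was saturated, and 65.0% to 74.5% of probes per array were well above background. Precision is limited by the number of arrays. In simulated data of 39461 probes, 14.7%, 65.2% and 84.8% of probes changed by 1, 2 and 4 on the log2 scale were recovered. That simulation changed 200 probes in all. In the data 26.2% of tested probes passed, so the adjusted threshold was less strict there. The simulated shares therefore do not measure recovery in these data.

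Probes were named through RefSeq accessions in a table of GRCm38.p6, used for names and promoters, and 26582 probes matched. Members and lists were chosen with earlier results of these data known. The text names all members, Hhex, up to 4 genes with the smallest p of each of the lists of inducers, partners, EGR targets and other early genes (1 of them is not reported here), and the nearest genes by profile, 3 for each member measured on all arrays. Marker lists of 11 cell types were summed, as log2 of the summed scaled signal. The files hold no mean signal, so normexp used the median spot and background signals.

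Deviations of same-numbered PRH and control arrays from their group means correlated at 0.205, 0.427, 0.657 and 0.260. All were above 0.1, the limit set for also running a fit with the block. Of the 8 arrays, 6 correlated best with the array of their own number. These correlations cannot show that a number marks a shared animal, since mouse number and slide row cannot be told apart. Blocked values are given where they change a call of a member or of a gene in the lists. Elk4, Mrtfb, Ier3ip1, Rxrg, Arc, Krt18 and the markers named with the block or a further probe were chosen after their values were seen.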

Additional observations from a re-analysis of the deposited data

Results flagged for a closer look

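Egr2 on PRH 3 stood at 0.75, while the other 3 PRH arrays lay between 0.10 and 0.15, and that gap is wider than Dixon's test allows for 4 arrays. Ier3 on PRH 3 stood at 7.49 when its flagged spot was kept, against 2.15 to 2.31 on the other PRH arrays, and it stands apart by the same test. These were 2 of 24 groups of 4 arrays examined, and chance marks about 1 group in 20.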

How the results depend on the processing

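The 25 settings changed the member calls as follows, from 0 higher and 0 lower. Lower calls numbered 2 after median centring, 1 among probes detected on all 8 arrays, 1 with an intensity trend and 5 without scaling, and 0 to 1 when an array was left out, the 1 being Ier2 without control 1. With the replicate block, 1 member probe (Egr3) was called higher, and all-probe calls higher numbered 9815 and list genes higher 5. With values under the floor raised as well, these were 1, 9611 and 5. With the block and both arrays of mouse 3 left out, 1 member probe was higher and 1488 of all probes were lower. The block changed no other member call. Calls over all probes, 6355 higher and 3975 lower, became 3122 and 9876 after median centring, 0 and 4 after spike-in centring, and 2236 and 13038 without scaling. Quantile normalization gave 6215 lower, and normexp and the authors' values gave 3951 and 3989 higher. Leaving out an array gave 4480 to 7198 higher and 2058 to 6177 lower, with both highest counts without control 1 and the lowest lower count without control 5. In the 4 lists, 3 higher and 10 lower became 1 and 26 after median centring, 0 and 0 after spike-in centring, 0 and 33 without scaling, and 3 higher and 7 to 17 lower without an array, 17 being without control 1.

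Signs turned for Nr4a1 (-0.36 median, -0.024 spike-in, -0.012 normexp, -0.012 authors' values, -0.49 without scaling), Egr1 (0.000546 normexp, 0.000613 authors' values) and Nr4a2 A_52_P494622 (0.034 normexp, 0.035 authors' values, and -0.19 to 0.053 without an array, positive without PRH 3, and 0.035 with the block and no mouse 3). They also turned for Nr4a2 A_55_P1983508 (-0.24 to 0.053 without an array, positive without PRH 1, PRH 3 or control 3, and 0.17 with the block and no mouse 3), Ier5 A_55_P2021109 (0.033 brightness bins, and -0.14 to 0.0021 without an array, positive without control 2) and Ier3 (0.78 authors' values, 0.88 with its flagged spot). Ier3 turned through that spot. The cause of the other changes was not tested. Keeping flagged spots, dropping the scaling, raising values to the floor and leaving out mouse 3 were chosen after seeing the data. Dim probes such as Egr3 limit what these arrays resolve, and Nr4a3 passed the Agilent software's background test on 0 of 8 arrays.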
